A study of Apis mellifera ligustica with 11 samples.

Results

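Brains of the Italian honeybee, Apis mellifera ligustica, sampled 20 days after fluvalinate exposure began were compared with brains sampled at 10 days. The comparison uses 5 of the 11 libraries of the series, taken by their labels alone: 2 from day 10 (replicates 2 and 3) and 3 from day 20 (replicates 1, 2 and 3). Both groups carried the same treatment, fluvalinate at what the labels call a normal dosage, with mite treatment repeated every 7 days. Pigments and the glands that produce royal jelly had been dissected away before total RNA was extracted with Trizol, per the labels. The 3 libraries of day 30, from bees treated alike, entered the test only to help estimate the spread between libraries, and their values stand beside the others below. The remaining 3 libraries were sampled 1 day before exposure and are not part of the comparison. They entered only the filter on mean level and the fits of all 11 libraries, where they too help estimate the spread. Unexposed bees of the same days were not analysed here, so longer exposure, the age of the bees and the date of sampling cannot be told apart. The labels give neither the age of the bees nor the number of brains in a library, and they are silent on whether each library stems from its own colony. The p-values therefore measure only the spread between these libraries, which may be technical.

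Fluvalinate is a pyrethroid that kills Varroa mites inside the hive. Pyrethroids hold voltage-gated sodium channels open, so that nerve cells fire repeatedly, and the sodium channel of insects is encoded by the gene named para in Drosophila and Para here. In worker bees the head also holds the hypopharyngeal and mandibular glands, which lie close to the brain and secrete royal jelly while a worker nurses brood and much less once it forages. Fat-storing cells and cells that make cuticle lipids carry the enzymes that build and lengthen fatty acids.

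Each value is an FPKM, the fragments normalised to transcript length and library size, a unit that allows genes of different length to be compared. Differences are given on the log2(FPKM + 1) scale as day 20 minus day 10, so that 1 is about a doubling, with the standard error (SE) that limma gives. The median gene lay 0.09 above 0 as deposited, 0.00 above with median-of-ratios scaling and 0.22 above when libraries were scaled without the royal jelly genes. Log2 differences below are therefore relative to the median gene, while the p-values test the values as deposited.

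No gene passed. Of the 7830 genes tested with limma, 0 were higher and 0 lower at day 20 at an adjusted p of 0.05 (0.0% in each direction). The smallest adjusted p was 0.0509, shared by 11 genes, of which 10 were lower at day 20 and 1 was higher. At an unadjusted p of 0.05 there were 1564 genes, 20.0% of those tested, with 1156 higher (14.8%) and 408 lower (5.21%). In 2232 genes (28.5%) all day 20 libraries lay above both day 10 libraries, and in 1315 genes (16.8%) all lay below. Differences of at least 2-fold without overlap were found upward in 10 genes (0.128%) and downward in 135 (1.72%). The genes and lists below are thus described by their values, and none of them is a call.

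The count of calls depended on the libraries in the fit. With the 5 libraries alone, limma called 0 genes higher and 56 lower (0.715%) at an adjusted p of 0.05, and with all 11 libraries 2 higher (0.0255%) and 6 lower (0.0766%). Without day 10 replicate 2, 2 were called higher (0.0255%) and 0 lower, and without day 10 replicate 3, 176 higher (2.25%) and 28 lower (0.358%). Leaving out day 10 replicate 2 also reduced the genes at an unadjusted p of 0.05 to 255 higher (3.26% of all tested) and 225 lower (2.87%), which is the background for every count given below without that library. Leaving out day 30 replicate 2 gave 4 higher (0.0511%) and 57 lower (0.728%). Scaling shifted the balance of the genes at an unadjusted p of 0.05: 73.9% of them were higher as deposited, 52.4% with median-of-ratios scaling, 58.9% with quantile normalization and 87.5% when scaled without the royal jelly genes.

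Depth is unknown, because FPKM keep no read counts. Day 10 replicate 2 had the lowest mean correlation with the other 4 libraries across genes (r = 0.953), and the others had 0.964 to 0.971. The major royal jelly protein genes made up 27.0% and 23.9% of the summed FPKM in day 10 replicates 2 and 3, and 13.2%, 23.9% and 17% in day 20 replicates 1, 2 and 3. Their summed level was 110277 ± 22653 FPKM (SD, n = 2) at day 10 and 63783 ± 20586 FPKM (SD, n = 3) at day 20, with an exact two-sided permutation p of 0.2, the smallest that 3 libraries against 2 allow. Mitochondrially encoded transcripts, a sign of library make-up, summed to 8209 and 6368 FPKM at day 10 and to 6736, 4954 and 6602 FPKM at day 20 (exact two-sided permutation p = 0.6). Neuronal markers were present at both days, beside royal jelly transcripts in a tissue labelled as cleared of royal jelly glands. The tissue these royal jelly transcripts came from was not tested. Syx1A lay between 69.6 and 122 FPKM and brp, the active zone scaffold bruchpilot, between 8.81 and 21.7 FPKM in the 5 libraries.

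Several of the named genes that were higher at day 20 act in nerve cells. The gene with the smallest p among those higher was LOC411396, which encodes neprilysin-4, a membrane peptidase that in Drosophila cleaves neuropeptides and other small peptides. It stood at 59.8 and 79.3 FPKM in the day 10 libraries against 142, 121 and 156 FPKM at day 20, 2.01 times the day 10 mean (0.91 ± 0.16 SE, adjusted p = 0.0509). The groups did not overlap, and the day 30 libraries, at 126, 111 and 125 FPKM, lay within the range of day 20 or just under it. Its adjusted p was 0.0528 with the 5 libraries alone and 0.0439 with all 11.

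LOC725131 encodes futsch, a microtubule-associated protein of axons and synaptic terminals. Its level was 23.0 and 36.1 FPKM at day 10, 59.3, 57.4 and 61.7 FPKM at day 20 and 77.0, 63.7 and 75.7 FPKM at day 30. The 3 day 20 values were close together, and both day 10 values were far below them (0.93 ± 0.18 SE, adjusted p = 0.0751, with 0.0683 in the fit of 5 libraries and 0.0439 in that of 11). LOC411155, teneurin-a, a cell adhesion protein that matches synaptic partners in Drosophila, gave 33.4 and 48.3 FPKM at day 10 and 78.7, 62.1 and 80.2 FPKM at day 20. Syx1A, the membrane part of the machinery that fuses synaptic vesicles, gave 69.6 and 76.5 FPKM and then 122, 104 and 110 FPKM (0.52 ± 0.13 SE, adjusted p = 0.102).

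Peptide and receptor genes were among the named ones as well. Apime-ASTA, the precursor of the neuropeptide allatostatin A, was at 11.8 and 16.2 FPKM at day 10 against 24.5, 22.7 and 24.5 FPKM at day 20 (0.65 ± 0.15 SE, adjusted p = 0.0965). The eclosion hormone gene LOC726377 was at 2.91 and 3.94 FPKM at day 10 against 9.03, 6.28 and 7.79 FPKM at day 20. LOC411420, adenosine receptor A2b, had the largest log2 difference of the 15 named genes that were higher, 1.70 ± 0.37 SE. It measured 0.84 and 3.79 FPKM at day 10 against 6.72, 10.3 and 11.4 FPKM at day 20, so its ratio of 4.09 rests on low day 10 values. Obp10, an odorant-binding protein, stood at 110 and 138 FPKM and then at 211, 182 and 202 FPKM, and lay lower again at day 30, at 165, 149 and 170 FPKM.

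The other 7 named genes that were higher had log2 differences between 0.53 and 1.37. LOC410258, selenide, water dikinase, an enzyme that makes selenophosphate, was at 9.16 and 3.17 FPKM at day 10 against 17.3, 14.8 and 18.9 FPKM at day 20 (1.37 ± 0.31 SE). Mad, described as a MAX dimerization protein, a class of transcriptional repressors, measured 32.3 and 46.0 FPKM at day 10 and then 69.4, 69.0 and 66.8 FPKM. The rest were LOC409816 (a MORN repeat protein, 0.66), LOC413676 (patched domain-containing protein 3, 0.73), LOC107965037 (a probable protein kinase, 0.71), LOC102654166 (described as trichohyalin, 0.53) and Gb15078 (0.66).

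**Figure D1:**
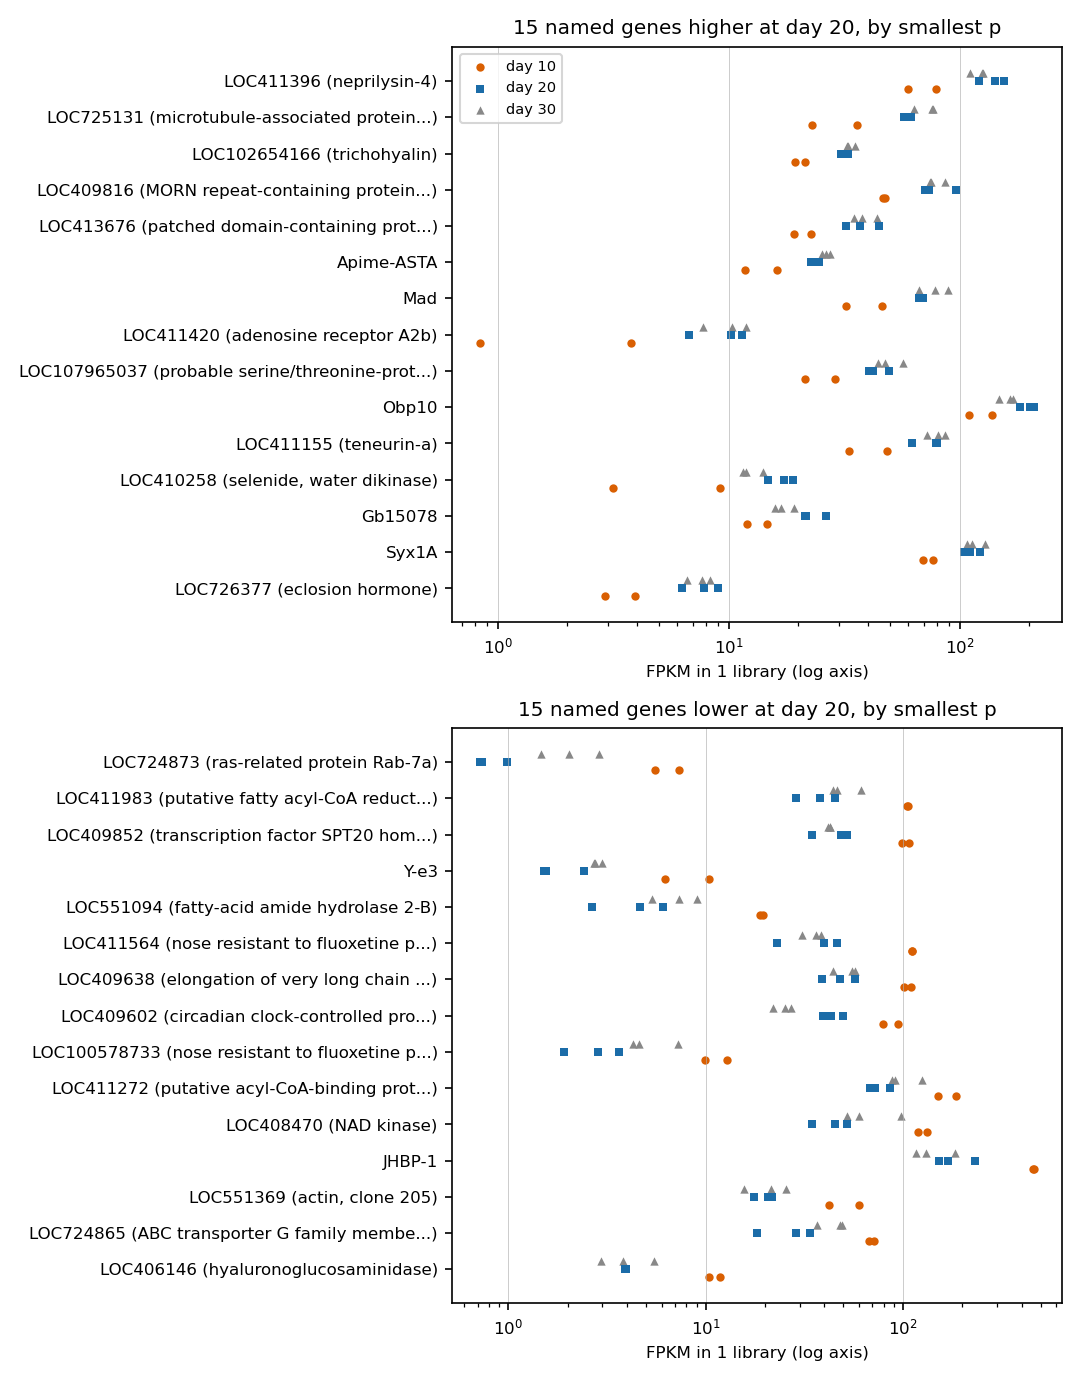
FPKM of the 30 named genes in each library on a log axis, with 15 genes higher at day 20 in the upper panel and 15 lower in the lower panel, ordered by p. Circles are the 2 day 10 libraries, squares the 3 day 20 libraries and triangles the 3 day 30 libraries. In each row the circles and squares do not overlap, which for LOC724873 means 7.35 and 5.56 FPKM against values under 1 FPKM.

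Voltage-gated ion channels, which carry the action potential and open transmitter release, had 18 genes in the test. At an unadjusted p of 0.05, 17 were higher at day 20 and 1 was lower, against 14.8% and 5.21% of all genes, and their median difference was 0.50. Para measured 25.4 and 40.7 FPKM in the day 10 libraries, 62.1, 56.1 and 54.4 FPKM at day 20 and 78.3, 57.1 and 79.3 FPKM at day 30. Its day 20 values lay above both day 10 values (0.73 ± 0.20 SE, adjusted p = 0.113). LOC408841, a calcium channel subunit, measured 31.8 and 38.95 FPKM at day 10 and 59.4, 45.5 and 56.5 FPKM at day 20 (0.50 ± 0.16 SE). The exception was LOC551845, a potassium channel at 2.98 and 2.08 FPKM at day 10 against 0.14, 0.48 and 0.29 FPKM at day 20. Leaving out day 10 replicate 2, so that day 10 rests on a single library assumed to vary like the rest, left 4 channels higher and 0 lower, with a median of 0.33, where 3.26% of all genes were higher.

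Synaptic vesicle and active zone genes followed the same order of the libraries. Among 39 of them 20 were higher at an unadjusted p of 0.05 and 2 lower, against 14.8% and 5.21% of all genes. The median of the list was 0.38. Syt1, synaptotagmin 1, the calcium sensor of vesicle release, gave 74.01 and 114 FPKM at day 10 and 158, 149 and 131 FPKM at day 20 (0.57 ± 0.19 SE). LOC409924, synaptic vesicle glycoprotein 2B, had a mean of 127 ± 1.5 FPKM (SD, n = 2) at day 10 and of 184 ± 26.2 FPKM (SD, n = 3) at day 20. On the other side was LOC725462, vesicular glutamate transporter 2.1, with 39.8 and 29.4 FPKM at day 10 and 12.5, 21.95 and 17.3 FPKM at day 20 (-1.07 ± 0.35 SE). The count without day 10 replicate 2 was 4 higher and 0 lower, with a median of 0.23, against 3.26% of all genes higher.

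Neurotransmitter receptors, 43 genes for acetylcholine, glutamate, GABA and the amines, had 25 members higher and 0 lower at an unadjusted p of 0.05. Of all genes 14.8% were higher and 5.21% lower. The median of the receptors was 0.38. Without day 20 replicate 1, 9 receptors were higher and 0 lower, with a median of 0.31, where 632 of the 7830 genes were higher. GluCl, the glutamate-gated chloride channel of invertebrates, was at 49.5 and 57.6 FPKM at day 10 against 77.0, 72.3 and 74.8 FPKM at day 20. Nmdar1, the NMDA receptor subunit linked to olfactory memory in insects, was at 36.1 and 43.7 FPKM and then at 59.0, 52.6 and 54.7 FPKM. Both were higher in each day 20 library than in either day 10 library, by 0.39 ± 0.15 and 0.38 ± 0.14 (SE). When day 10 replicate 2 was left out, 4 receptors were higher and 0 lower, with a median of 0.21, and 3.26% of all genes were higher.

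Of 17 neuropeptide precursors 12 were higher and 0 lower, against 14.8% and 5.21% of all genes. The median of the precursors was 0.46. LOC726472, prohormone-3, measured 150 and 178 FPKM at day 10 and 275, 231 and 254 FPKM at day 20 (0.54 ± 0.16 SE). LOC409241, prohormone-4, measured 152 and 158 FPKM and then 241, 184 and 246 FPKM (0.42 ± 0.16 SE). Without day 10 replicate 2 the neuropeptides had 7 higher and 0 lower, with a median of 0.40. Learning kinases and cAMP signalling genes numbered 18, with 9 higher and 0 lower and a median of 0.26. LOC409390, a regulatory subunit of the cAMP-dependent kinase, was at 114 and 120 FPKM and then at 140, 138 and 162 FPKM. LOC726262, an adenylate cyclase, which makes cAMP, was at 99.6 and 100.3 FPKM and then at 121, 130 and 141 FPKM. Their count was 4 higher and 1 lower with median-of-ratios scaling (11.2% of all genes higher), 3 and 1 with quantile normalization (12.5%), and 2 and 1 without day 10 replicate 2.

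Library make-up differed alongside the neuronal counts, and its part in them was not tested. Day 10 replicate 2 had the highest share of royal jelly transcripts (27.0%), the highest mitochondrial sum (8209 FPKM) and the lowest median level of the channel list. In centred log2 units that level was -0.50 there, -0.11 in day 10 replicate 3, and 0.27, 0.27 and 0.11 in day 20 replicates 1, 2 and 3. Day 20 replicate 2 held 23.9% royal jelly transcripts, as much as day 10 replicate 3, and the channel levels of these libraries were 0.27 and -0.11. With the royal jelly level as a covariate 13 channels were higher and 1 lower (median 0.47), where 10.1% of all genes were higher, and with the mitochondrial level 14 and 1 (median 0.43), where 10.0% were higher and 3.98% lower. For the receptors these covariates gave 12 and 13 higher in place of 25.

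**Figure D2:**
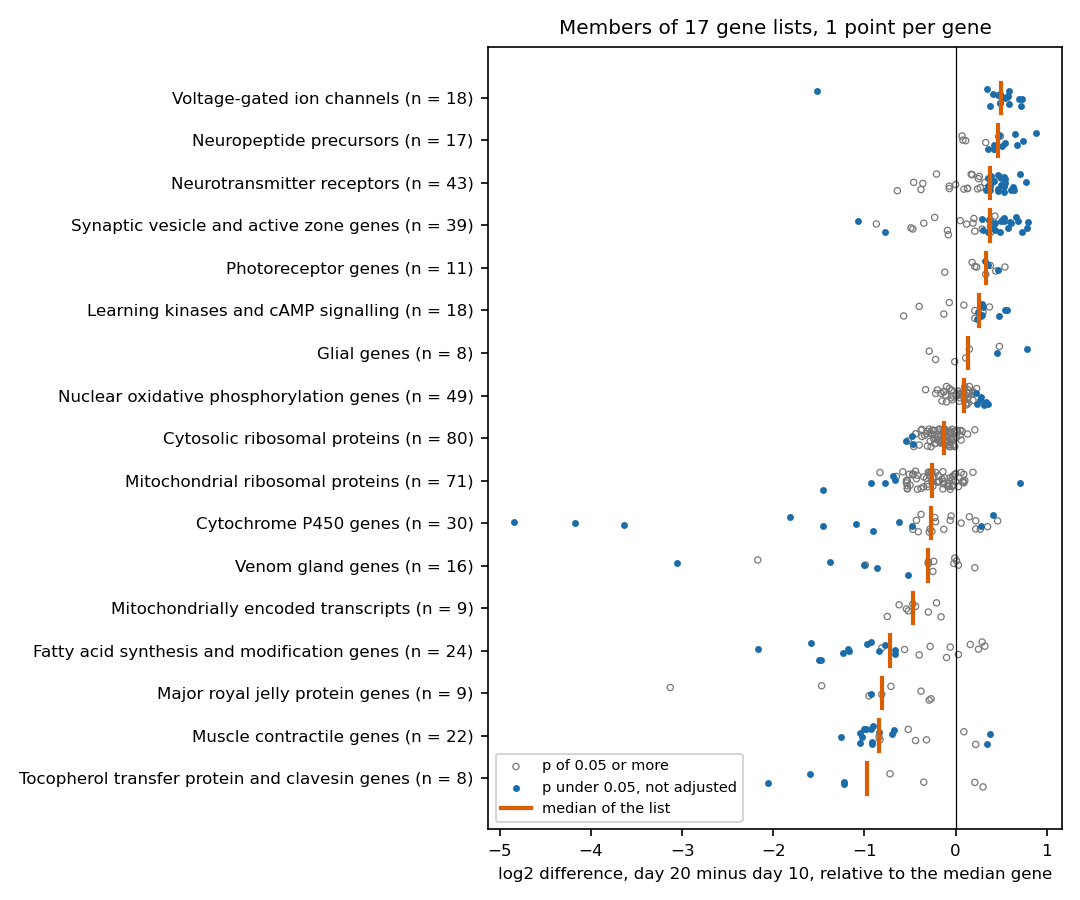
Log2 difference of each gene, day 20 minus day 10, relative to the median gene, for 17 gene lists with the number of genes tested in brackets. Filled points have an unadjusted p under 0.05 in limma, open points do not, and the bar is the median of the list. Channels (0.50) and neuropeptides (0.46) lie to the right of 0, and fatty acid (-0.72) and muscle genes (-0.84) to the left.

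Of the 15 named genes that were lower at day 20, 4 encode proteins that act on or bind fatty acids and are given first. LOC411983, a putative fatty acyl-CoA reductase, which turns fatty acids into alcohols for waxes and cuticle lipids, stood at 107 and 105 FPKM at day 10 against 38.2, 28.9 and 45.2 FPKM at day 20. The day 10 values nearly coincided and the day 20 values lay far below (in the mean, a ratio of 0.353, -1.59 ± 0.19 SE, adjusted p = 0.0509). At day 30 it measured 46.4, 61.1 and 44.0 FPKM. LOC409638, an elongase that lengthens very long chain fatty acids, was at 110 and 102 FPKM and then at 39.04, 47.8 and 57.1 FPKM (-1.23 ± 0.17 SE). LOC411272, an acyl-CoA-binding protein, which carries activated fatty acids, was at 186 and 151 FPKM and then at 68.3, 72.2 and 86.4 FPKM (-1.23 ± 0.18 SE). LOC551094, a fatty-acid amide hydrolase, was at 18.9 and 19.6 FPKM and then at 2.66, 4.68 and 6.12 FPKM (-2.02 ± 0.28 SE). In the fit of the 5 libraries these 4 genes had adjusted p-values of 0.022, 0.0376, 0.0298 and 0.0298, and in the fit of 11 libraries 0.0439, 0.0439, 0.0881 and 0.0439.

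The whole list of fatty acid synthesis and modification genes had 24 members in the test. At an unadjusted p of 0.05, 13 were lower and 0 higher, against 5.21% and 14.8% of all genes. The median of the list was -0.72. LOC412815, fatty acid synthase, was at 574 and 453 FPKM at day 10 against 213, 171 and 198 FPKM at day 20 (-1.48 ± 0.26 SE, adjusted p = 0.0839). Its day 30 values were 255, 466 and 240 FPKM, of which replicate 2 reached the level of day 10. LOC552417, a desaturase, which adds a double bond to a fatty acid, went against the list at 415 and 398 FPKM and then 511, 452 and 682 FPKM (0.32 ± 0.19 SE). Without day 10 replicate 2 the list had 10 lower and 0 higher members and a median of -0.56, and with the royal jelly covariate 13 lower and 1 higher and a median of -0.61, where 10.5% of all genes were lower. In bulk tissue, fewer cells of a type and less RNA per cell cannot be told apart, here and in the lists that follow.

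Carriers of small lipids were read as a list. Of 8 tocopherol transfer protein and clavesin genes, which carry fat-soluble molecules, 4 were lower and 0 higher, against 5.21% and 14.8% of all genes. The list median was -0.97, and the highest member stood at 0.30. LOC552447, clavesin-2, measured 412 and 346 FPKM at day 10 and 194, 77.2 and 153 FPKM at day 20 (-1.60 ± 0.35 SE). LOC408361, described as alpha-tocopherol transfer protein-like, measured 187 and 145 FPKM and then 98.8, 48.9 and 85.5 FPKM (-1.22 ± 0.28 SE). JHBP-1, outside that list, a take-out-like carrier of the family that binds juvenile hormone, gave 456 and 464 FPKM and then 169, 152 and 233 FPKM (-1.42 ± 0.22 SE, adjusted p = 0.061). The tocopherol and clavesin list had a median of -0.55 without day 10 replicate 2, with 3 lower and 0 higher.

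Both tested genes of the nose resistant to fluoxetine type, a family named after a mutant of the worm Caenorhabditis elegans, were among the 11 genes at the smallest adjusted p. LOC411564 stood at 111 FPKM in each day 10 library and at 23.2, 40 and 46.4 FPKM at day 20 (-1.72 ± 0.24 SE). LOC100578733 stood at 12.8 and 9.88 FPKM and then at 1.91, 2.84 and 3.64 FPKM (-1.80 ± 0.27 SE). At day 30 the former measured 36.4, 30.9 and 38.6 FPKM and the latter 7.23, 4.31 and 4.61 FPKM. Their adjusted p-values were 0.0478 and 0.0298 in the fit of the 5 libraries, and 0.0439 for both with all 11.

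The other named genes that were lower have varied roles. LOC724873, annotated as Rab-7a, a small GTPase of late endosomes, had the smallest p of all genes, with 7.35 and 5.56 FPKM at day 10 and 0.72, 0.98 and 0.74 FPKM at day 20 (-2.12 ± 0.24 SE, adjusted p = 0.0509, with 0.0211 in the fit of 5 libraries and 0.0562 in that of 11). LOC409852, a homologue of the transcription factor SPT20, measured 98.9 and 107 FPKM and then 34.7, 52.1 and 48.4 FPKM. LOC408470, NAD kinase, the enzyme that makes NADP, measured 133 and 120 FPKM and then 34.7, 45.2 and 51.9 FPKM (-1.61 ± 0.25 SE). LOC409602, described as circadian clock-controlled protein, was at 94.2 and 79.7 FPKM, then at 39.5, 43.0 and 49.95 FPKM, and at 21.96, 27.0 and 25.3 FPKM at day 30, the lowest of the 3 days. Y-e3 (yellow-e3, -1.78 ± 0.25 SE), LOC724865 (an ABC transporter of the G family, -1.46 ± 0.23 SE) and LOC406146 (hyaluronoglucosaminidase, -1.39 ± 0.23 SE) were lower as well. LOC551369, described as the actin of clone 205 and not a member of the muscle list, was at 42.0 and 59.7 FPKM and then at 21.6, 17.5 and 20.7 FPKM (-1.38 ± 0.21 SE, adjusted p = 0.0612).

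Most muscle genes had lower values at day 20, in a tissue labelled as brain. Of 22 tested contractile genes, 13 were lower and 2 higher at an unadjusted p of 0.05, against 5.21% and 14.8% of all genes. The median of the list was -0.84. In 16 of them each day 20 library lay below both day 10 libraries, as in 16.8% of all genes. The summed level of the list was 701 and 933 FPKM at day 10, 562, 448 and 514 FPKM at day 20 and 658, 393 and 474 FPKM at day 30, and no member was at 0 in all 5 libraries of days 10 and 20. LOC409881, myosin regulatory light chain 2, was at 96.5 and 121 FPKM and then at 48.7, 49.3 and 69.7 FPKM (-1.05 ± 0.28 SE). TpnCIIIa, a troponin C, which binds the calcium that starts contraction, was at 108 and 163 FPKM and then at 103, 63.1 and 77.0 FPKM (-0.83 ± 0.33 SE). LOC411285, muscle LIM protein Mlp84B, had the smallest p of the list and was chosen after its values were seen: 21.9 and 22.4 FPKM against 9.98, 8.40 and 9.56 FPKM (-1.26 ± 0.20 SE).

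Unlike the neuronal counts, the muscle count was as large without day 10 replicate 2, at 14 lower and 0 higher with a median of -0.95. Without day 10 replicate 3, the library with the highest sum of muscle transcripts, it was 6 lower and 2 higher with a median of -0.68, against 4.2% and 19.8% of all genes. It was 8 lower and 2 higher when libraries were scaled without the royal jelly genes, against 2.63% and 18.4% of all genes. With the royal jelly level as a covariate limma called 7 of the 22 lower at an adjusted p of 0.05, against 0.319% of all genes, and the median was -1.02. The 2 members that were higher are annotated as titin, among them LOC724192 with 19.5 and 26.04 FPKM at day 10 and 31.9, 31.3 and 31.5 FPKM at day 20 (0.38 ± 0.15 SE).

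**Figure D3:**
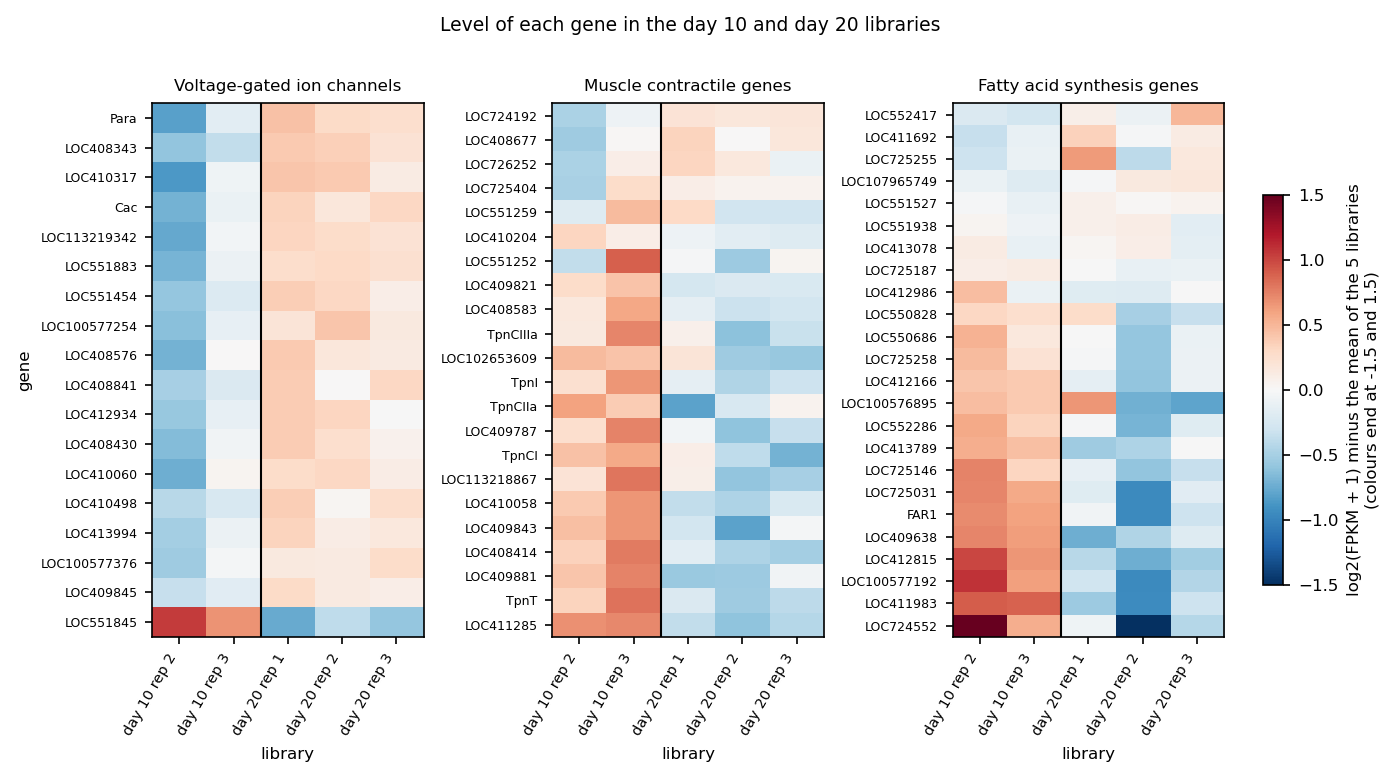
Level of each voltage-gated channel, muscle and fatty acid gene in the 5 libraries, as log2(FPKM + 1) minus the mean of that gene over the 5 libraries; red is above the mean and blue below, and the black line parts day 10 from day 20. Channels are bluest in day 10 replicate 2, most muscle genes are reddest in day 10 replicate 3, and most fatty acid genes are red in both.

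Royal jelly genes varied widely among the libraries of each day. Mrjp1, the most abundant protein of royal jelly, measured 96898 and 68894 FPKM at day 10, 32856, 59966 and 46329 FPKM at day 20 and 3205, 25775 and 6270 FPKM at day 30. The day 20 libraries lay below both of day 10 and those of day 30 lower still, yet the SE of the difference was as large as the difference (-0.95 ± 0.95 SE, adjusted p = 0.637). Mrjp3 ran from 82.2 FPKM in day 20 replicate 1 to 3558 FPKM in day 10 replicate 3 (-3.13 ± 1.43 SE). Mrjp9, another member, was the one with an unadjusted p under 0.05: 27.3 and 21.1 FPKM against 10.1, 18.6 and 11.5 FPKM (-0.93 ± 0.34 SE). For Mrjp2, Mrjp4, Mrjp5, Mrjp6, Mrjp7 and Mrjp8 the day 10 and day 20 libraries overlapped, with log2 differences of -0.81, -1.47, -0.29, -0.38, -0.71 and -0.27. The genes of this family are alike in sequence, so how reads were shared among them is uncertain.

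Of 6 genes in the list of gland enzymes and apisimin, 0 passed an unadjusted p of 0.05. In 3 of them each day 20 library lay below both of day 10, against 16.8% of all genes. In LOC406114 (alpha-amylase, -0.64), Hbg2 (alpha-glucosidase, -0.31) and LOC551205 (neutral alpha-glucosidase AB, -0.14) the days overlapped. Hbg2 and LOC551205 were in the list but not among the markers planned for the gland. LOC406093, apisimin, a small royal jelly peptide, measured 78596 and 46747 FPKM at day 10 and 18292, 24642 and 32776 FPKM at day 20 (-1.39 ± 0.86 SE). LOC406081, glucose oxidase, which keeps honey and jelly free of microbes, measured 9608 and 4497 FPKM and then 2476, 3323 and 3737 FPKM (-1.16 ± 0.63 SE). Hbg3, the alpha-glucosidase that workers add to nectar, measured 12134 and 6755 FPKM and then 3930, 4302 and 6454 FPKM (-1.01 ± 0.63 SE). The adjusted p-values of these 3 lay between 0.36 and 0.43. At day 30 replicate 2 stood apart from the other 2 libraries in each of them, with 39590, 5830 and 11306 FPKM.

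Fat body proteins lay in different directions. Vg, vitellogenin, the yolk protein that is high in nurse bees, was at 47.8 and 65.0 FPKM at day 10, at 18.4, 26.4 and 19.6 FPKM at day 20 against 5.44, 19.1 and 8.61 FPKM at day 30 (-1.44 ± 0.38 SE, adjusted p = 0.139). A4, an apolipophorin-III-like lipid carrier, was at 667 and 270 FPKM, then at 43.6, 51.4 and 26.6 FPKM, and at 29.2, 582 and 16.9 FPKM at day 30 (-3.50 ± 1.14 SE). Tsf1, transferrin, an iron carrier, lay the other way at 1266 and 1547 FPKM and then 2079, 1785 and 1768 FPKM (0.33 ± 0.25 SE, limma's unadjusted p = 0.117). Limma's adjusted p for Vg, A4 and Tsf1 was 0.0361, 0.0213 and 0.264 with the 5 libraries alone. With all 11 it was 0.0948, 0.119 and 0.346. Of the 8 genes of the list 3 were lower and 1, not Tsf1, was higher at an unadjusted p of 0.05, against 5.21% and 14.8% of all genes. Without day 10 replicate 2, 1 was lower and 1 higher.

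**Figure D4:**
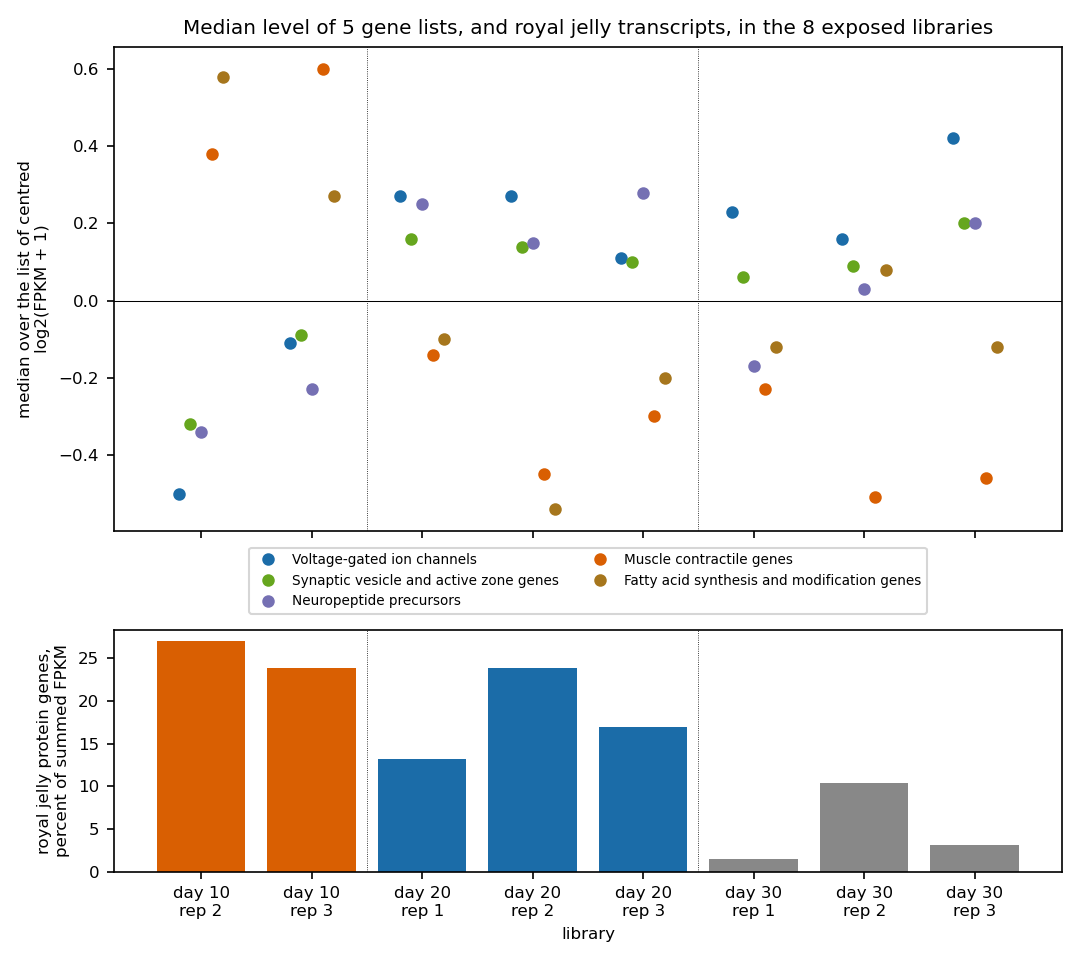
Upper panel: median over each of 5 gene lists of log2(FPKM + 1), centred on the mean of day 10 and day 20 for each gene and on the median gene for each library, in the 8 exposed libraries. Lower panel: share of the summed FPKM taken by the major royal jelly protein genes, from 1.52% in day 30 replicate 1 to 27.0% in day 10 replicate 2. The channel list lies below 0 in both day 10 libraries and above 0 in the other 6, and the muscle list the reverse.

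Detoxification genes included the 3 lowest log2 differences of the 7830 genes, all with wide errors in the fit of the 8 exposed libraries. LOC406105, esterase A2, measured 679 and 446 FPKM at day 10 and 13.2, 50.8 and 4.73 FPKM at day 20 (-5.18 ± 1.53 SE, adjusted p = 0.144). LOC413083, cytochrome P450 6a14, measured 548 and 371 FPKM and then 8.41, 62.2 and 6.90 FPKM (-4.84 ± 1.56 SE), and LOC725017, UDP-glucuronosyltransferase 2B15, 208 and 168 FPKM and then 4.13, 43.2 and 2.04 FPKM (-4.50 ± 1.41 SE). LOC725051, multidrug resistance-associated protein 4, which pumps conjugated compounds out of cells, measured 90.8 and 83.4 FPKM and then 3.56, 9.37 and 2.18 FPKM (-4.14 ± 1.08 SE). In all 4 the highest day 20 value was that of replicate 2, the day 20 library with most royal jelly transcripts. At day 30 these genes were low in replicates 1 and 3 and high in replicate 2, with 442, 463, 118 and 64.6 FPKM in the same order. In the fit of the 5 libraries limma's adjusted p-values, in that order, were 0.0383, 0.0499, 0.0899 and 0.0213. With all 11 libraries they were 0.123, 0.134, 0.161 and 0.0975. The part of gland tissue in these differences was not tested.

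Among 30 cytochrome P450 genes, the enzymes that oxidise pyrethroids and other foreign compounds, 9 were lower and 2 higher at an unadjusted p of 0.05. Of all genes 5.21% were lower and 14.8% higher. The median of the P450 list was -0.27. The pair with the highest mean levels, both named P450 9e2, lay higher at day 20. LOC408452 measured 497 and 437 FPKM and then 768, 568 and 653 FPKM (0.41 ± 0.17 SE), and LOC724211 561 and 654 FPKM and then 990, 708 and 786 FPKM (0.35 ± 0.20 SE). Glutathione S-transferases were split between GstS1, with 150 and 201 FPKM and then 262, 220 and 287 FPKM, and the microsomal LOC410837, with 153 and 107 FPKM and then 68.3, 61.2 and 81.3 FPKM. Of 37 UDP-glycosyltransferases and ABC transporters 4 were higher and 2 lower (10.8% and 5.41%), shares near those of all genes (14.8% and 5.21%). LOC409897, a multidrug resistance-associated protein, was the member with the smallest p, at 2.84 and 6.88 FPKM and then 11.9, 10.96 and 15.4 FPKM (1.22 ± 0.28 SE).

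Chemosensory and hormone genes showed single differences rather than a common direction. CSP3, the most abundant chemosensory protein, a class of small carriers found in many tissues, measured 5785 and 5573 FPKM at day 10 and 2315, 2938 and 3680 FPKM at day 20 (-1.05 ± 0.30 SE, adjusted p = 0.153). CSP1 measured 299 and 213 FPKM and then 123.1, 81.3 and 134 FPKM (-1.28 ± 0.29 SE). Of the 15 genes of that list 3 were lower and 2 higher (20.0% and 13.3%, against 5.21% and 14.8% of all genes). LOC406152, juvenile hormone epoxide hydrolase, which breaks down juvenile hormone, was at 118 and 114 FPKM, then at 65.5, 65.5 and 85.8 FPKM, and at 72.5, 82.0 and 72.2 FPKM at day 30 (-0.78 ± 0.14 SE, adjusted p = 0.0965). Of 17 hormone genes 3 were higher and 1 lower (17.6% and 5.88%), shares near those of all genes (14.8% and 5.21%). The yellow family, relatives of the royal jelly genes, was divided in the same way, with Y-f at 640 and 715 FPKM and then 1171, 898 and 1036 FPKM and LOC724293, yellow-x1, at 25.5 and 28.8 FPKM and then 19.9, 24.1 and 16.9 FPKM.

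The housekeeping lists given here had medians between -0.29 and 0.14, beside 14.8% of all genes higher and 5.21% lower at an unadjusted p of 0.05. Nuclear genes of oxidative phosphorylation (49 genes) had a median of 0.09 with 7 higher (14.3%, near the share of all genes) and 0 lower. Glycolysis and citric acid cycle genes (27 genes) had a median of 0.10 with 7 higher (25.9%) and 1 lower. Vacuolar proton pump subunits (14 genes) had one of 0.14 with 5 higher (35.7%) and 0 lower. Cytosolic ribosomal proteins (80 genes) had one of -0.13 with 0 higher and 3 lower. Mitochondrial ribosomal proteins (71 genes) had a median of -0.26 with 1 higher and 5 lower, and genes of folding and secretion in the endoplasmic reticulum (27 genes) one of -0.29 with 0 higher and 6 lower (22.2%, against 5.21% of all genes). In 31 of the 71 mitochondrial ribosomal genes each day 20 library lay below both of day 10, against 16.8% of all genes. The lower counts of the last pair depended on scaling, at 20 and 11 with median-of-ratios scaling, 16 and 13 with quantile normalization, and 1 and 2 when scaled without the royal jelly genes. In these fits 10.2%, 8.7% and 2.63% of all genes were lower. Of 41 heat shock proteins and chaperones 2 were higher and 0 lower (median 0.02), and of 17 antioxidant enzymes 1 was higher and 0 lower.

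The 9 mitochondrially encoded transcripts in the test had a median of -0.47, which was 0.04 without day 10 replicate 2, and 0 passed an unadjusted p of 0.05. COX1, the most abundant, measured 6108 and 4742 FPKM at day 10 and 5177, 3836 and 5077 FPKM at day 20, so the groups overlapped (-0.30 ± 0.34 SE). CYTB measured 926 and 871 FPKM and then 783, 599 and 697 FPKM, without overlap (-0.47 ± 0.18 SE, adjusted p = 0.274). COX2, COX3, ND1, ND3, ND4, ND5 and ATP6 had log2 differences of -0.54, -0.75, -0.52, -0.16, -0.44, -0.62 and -0.21. In all 9 day 10 replicate 2 held the highest value of the 5 libraries.

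Markers of other tissues were read as whole lists, beside 14.8% of all genes higher and 5.21% lower at an unadjusted p of 0.05. Of 11 photoreceptor genes, the sign of eye tissue left on the brain, 3 were higher and 0 lower, with a median of 0.33 and sums of 779 and 676 FPKM at day 10 and 1982, 740 and 782 FPKM at day 20. Day 20 replicate 1 thus stood apart in photoreceptor transcripts. Of 8 glial genes 2 were higher and 0 lower, with a median of 0.13. GlnS, glutamine synthetase, measured 1560 and 1997 FPKM and then 2938, 2453 and 2490 FPKM (0.48 ± 0.27 SE). LOC552479, draper, a receptor with which glia take up cell debris, measured 59.5 and 62.5 FPKM and then 46.2, 54.2 and 68.3 FPKM, so the days overlapped (-0.22 ± 0.16 SE). Of 16 genes named for venom proteins 5 were lower and 0 higher, while the summed level of the list was 3945 and 4283 FPKM at day 10 and 4195, 3979 and 3819 FPKM at day 20. Its most abundant members, LOC503505 (-0.02 ± 0.28 SE) and C1q-VP (-0.30 ± 0.21 SE), overlapped between the days. The member with the smallest p was LOC409143, a venom serine protease, with 142 and 50 FPKM and then 10.3, 7.59 and 12.3 FPKM. Hyaluronidase was also planned as a venom gland marker, but LOC406146, hyaluronoglucosaminidase, was not in this list. It measured 11.9 and 10.5 FPKM at day 10 and 3.96, 3.91 and 3.97 FPKM at day 20. The 3 haemocyte genes summed to 25.8 and 25.7 FPKM at day 10 and to 24.3, 24.6 and 31.5 FPKM at day 20. The part of these tissues in the differences above was not tested.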

How the data were processed

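Gene expression was measured in brain tissue by Illumina RNA sequencing. The authors deposited FPKM per gene and library, rounded to 2 decimals; the column names, per the file headers, state the unit. Per the submitters' processing notes, fastp 0.18.0, HISAT2 2.1.0 and StringTie were used, with no role stated. No source used here names the genome build, annotation or strand use, so overlapping genes may share reads and no coordinates are printed. The table has 12 FPKM columns, of which 1 was not used. Low values did not fall on whole-read steps between libraries (6.08% of 674 genes at the commonest ratio), so depth is unknown.

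Genes averaging 1 FPKM or more across the 11 labelled libraries, 7830 in all, entered limma 3.58.1 (R 4.3.3) as log2(FPKM + 1), which understates changes of low genes. One fit of group means used the 8 exposed libraries with a mean-variance trend, and the Benjamini-Hochberg adjustment ran over all genes. The libraries compared, the gene lists (45, by symbol and description) and the naming rule were chosen with earlier results of these data known. The rule names, in each direction, 15 genes that are called, do not overlap, reach 5 FPKM in the higher group and have a known name; as none was called, they are those of smallest p. For lists it names the 2 members of highest mean FPKM, and it always gives the royal jelly genes, Para, Vg and the mitochondrially encoded transcripts. brp, LOC411285, LOC724192, LOC551845, LOC725462, LOC413083, LOC725051, LOC409897, LOC409143, Or35, LOC410733, ACSF2, LOC551268, Hsc70-4, LOC406114, LOC551205 and Hbg2 lie outside the rule and were chosen after their values were seen.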

Additional observations from a re-analysis of the deposited data

How the results depend on the processing

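The fit of the 8 exposed libraries with limma gave 0 genes higher and 0 lower at an adjusted p of 0.05. Higher and lower counts were 0 and 56 with 5 libraries only, 2 and 6 with all 11, 0 and 11 with median-of-ratios scaling, 0 and 2 when scaled without royal jelly genes, 0 and 3 with a pseudocount of 0.1, 1 and 12 at a mean of at least 5 FPKM, 0 and 1 without the mean-variance trend, 3 and 19 with a robust prior and 0 and 25 with the royal jelly covariate. Both were 0 with quantile normalization, no filter or the mitochondrial covariate. Leaving out 1 of the 8 libraries at a time gave 0 to 176 higher and 0 to 57 lower. With the replicate number as a block limma called 0 higher and 2 lower. Libraries of one number did not deviate together (r = -0.24 for days 10 and 20, -0.09 to 0.04 for days 20 and 30). No pairing by number was thus seen, but so few libraries cannot tell whether any share a colony or batch.

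The log2 difference of summed royal jelly transcripts was -0.83, and -1.06 to -0.59 leaving out 1 library. That of the mitochondrial sum was -0.26, -0.44 to -0.08 leaving out 1 library, and -0.62 when each library's sum over the 13 genes was replaced by its median over them, not relative to the median gene.

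Of the 30 genes named by smallest p none changed direction in 21 alternatives. They were picked by p from these same values, and their day 10 and day 20 libraries do not overlap. Leaving out 1 library could therefore hardly turn them, and their constancy is no sign of stability. Of the 103 genes named in the text 14 changed direction, which were royal jelly or mitochondrial genes, LOC406114, LOC503505 and Hsc70-4. With the royal jelly covariate Mrjp1 was at 0.03, Mrjp2 at 0.28, Mrjp5 at 0.76, Mrjp6 at 0.69, Mrjp7 at 0.60, ATP6 at 0.14, ND4 at 0.00, LOC406114 at 0.45 and LOC503505 at 0.06. With the mitochondrial covariate ATP6 was at 0.29, Mrjp5 at 0.01, Mrjp6 at 0.32, ND3 at 0.24 and ND4 at 0.31. Each covariate is the mean level of the very genes it is named for. The differences of those genes then cancel on average by construction, so their sign changes in that fit say nothing of their stability. With the replicate block Mrjp5 was at 0.31, Mrjp6 at 0.09, Mrjp7 at 0.05 and LOC503505 at 0.03. With quantile normalization COX1 was at 0.27, Mrjp5 at 0.00 and LOC503505 at 0.29, and the last was at 0.00 when scaled without royal jelly genes and 0.02 with no filter. Leaving out 1 library gave -0.79 to 0.38 for ATP6 (0.01 without day 20 replicate 1), -1.53 to 0.04 for COX3, -0.62 to 0.14 for Mrjp5 (0.03 without day 10 replicate 2), -1.25 to 0.50 for Mrjp6 (0.12 without day 20 replicate 2), -1.24 to 0.22 for ND1, -0.69 to 0.38 for ND3, -0.94 to 0.08 for ND4, -1.42 to 0.15 for LOC406114, -0.08 to 0.05 for LOC503505 (0.03 without day 20 replicate 3) and -0.12 to 3.41 for Hsc70-4. The cause was not tested, and unknown depth limits what low genes can show.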

Other observations

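Some genes outside the lists and the naming rule, chosen after their values were seen, differed without overlap. LOC410733, a glucose dehydrogenase, measured 150 and 64.5 FPKM at day 10 and 21.4, 16.01 and 21.6 FPKM at day 20 (-2.37 ± 0.42 SE, limma's adjusted p = 0.0802). ACSF2, an acyl-CoA synthetase, which activates fatty acids, measured 40.8 and 22.6 FPKM and then 5, 5.35 and 6.79 FPKM (-2.32 ± 0.53 SE). LOC551268, a triacylglycerol lipase, measured 39.7 and 34.5 FPKM and then 9.65, 8.15 and 4.77 FPKM (-2.29 ± 0.47 SE). Day 30 replicate 2 was the highest of the 3 day 30 libraries in each, at 39.1, 25.2 and 37.0 FPKM.

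Among chemoreceptors Or35, an odorant receptor, measured 1.14 and 1.32 FPKM at day 10, then 2.99, 3.96 and 3.33 FPKM, and 3.26, 2.71 and 3.34 FPKM at day 30 (0.90 ± 0.20 SE, limma's adjusted p = 0.0965). Of 9 odorant and gustatory receptors tested 2 were higher and 0 lower at an unadjusted p of 0.05, against 14.8% and 5.21% of all genes.

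Hsc70-4, heat shock protein cognate 4, was among the genes of highest log2 difference (2.21 ± 2.12 SE, limma's adjusted p = 0.565), and a single library made it so. It stood at 0.37 and 0.75 FPKM at day 10, at 194 FPKM in day 20 replicate 1, and at 0.38 and 0.63 FPKM in replicates 2 and 3. Among the day 30 libraries replicate 1 alone was high, with 66.3 FPKM against 0 and 0.59 FPKM. Without day 20 replicate 1 its log2 difference was -0.12.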
